A study of Mus musculus with 22 samples.

Results

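The genes described here are 10 members of the BCL2 family, or relatives of it, set apart from the known p53 targets Bax, Bbc3 and Pmaip1: Bcl2, Bcl2l1, Mcl1, Bak1, Bcl2l11, Bid, Bad, Bik, Bmf and Bnip3. They were found by their symbols in the count tables of both RNA-seq experiments of the study, in which all 10 were present among 48709 genes counted in both. Of these, 9 passed the filter on low counts (a mean of more than 1 count per library) in each experiment, with 14 to 1985 counts per library, and Bak1 had 0 counts in all 18 libraries. The study asked how the MuvB subunit LIN9, which brings B-MYB to cell cycle genes, acts in heart muscle when the Hippo pathway is intact or inactivated.

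RNA came from heart ventricles of E13.5 mouse embryos on a C57/Bl6 background. All of them carried Nkx2.5-Cre, which deletes floxed alleles in cardiac progenitors and the cells that derive from them, so that cells outside this lineage keep both genes. The first experiment compared LIN9 wt with LIN9 KO ventricles, both with wild-type Sav1. The second experiment crossed both genes and had 4 groups, here called control (LIN9 wt and Sav1 wt), LIN9 KO, Sav1 KO and double KO. The study describes deleted genes as fl/fl, undeleted Sav1 as +/+ and the LIN9 wt ventricles of both RNA-seq experiments as Lin9 fl/+, a heterozygous floxed state, in which Cre can delete 1 allele, that the sample labels call wild-type. Each of the 6 groups had 3 libraries, and nothing in the labels ties a library to an embryo or a litter. In the study's wording the experiments are the biological replicates and each was done in triplicate, so p-values measure the spread between the libraries of an experiment, which may be technical. Total counts were 9485599 to 9615274 per library in the first experiment and 2770741 to 2999877 in the second, and levels are given as CPM, counts per 1000000 counts of a library after TMM normalization of the totals.

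Proteins of this family decide at the outer mitochondrial membrane whether a cell enters intrinsic apoptosis. Antiapoptotic members such as BCL2, BCL-XL and MCL1 hold the pore-forming effectors BAX and BAK in check, and BH3-only proteins bind the antiapoptotic members or activate the effectors directly. When the effectors form pores, cytochrome c leaves the mitochondria and caspases are activated. BNIP3 is an atypical relative in the same membrane that is induced by low oxygen and recruits the autophagy machinery to mitochondria. In heart muscle, which is rich in mitochondria, BCL-XL and MCL1 are known for keeping cardiomyocytes alive.

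The members whose levels rose after Lin9 deletion were Bcl2l1, Bmf and Bnip3, and the 250 bases before the transcription start of each are shown so that their sequence can be read beside the counts. RefSeq (GRCm38.p6) has a promoter entry for 9 of the 10 members, 15 entries in all, and none for Bik. The sequences are those of the outermost entry, written 5′ to 3′ on the strand of the gene. Capitals mark CACGTG before Bnip3, which holds ACGTG, the core of hypoxia response elements, on both strands and is also an E-box, and GGAATG before Bcl2l1, which is CATTCC, the core bound by TEAD factors, on the other strand.
Bnip3, chr7:138909507-138909756, minus strand: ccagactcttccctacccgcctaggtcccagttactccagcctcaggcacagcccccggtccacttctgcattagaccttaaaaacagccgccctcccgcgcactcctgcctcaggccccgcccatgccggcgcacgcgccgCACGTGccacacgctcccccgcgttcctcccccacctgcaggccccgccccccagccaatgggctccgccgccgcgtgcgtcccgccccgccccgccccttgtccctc
Bcl2l1, chr2:152831729-152831978, minus strand: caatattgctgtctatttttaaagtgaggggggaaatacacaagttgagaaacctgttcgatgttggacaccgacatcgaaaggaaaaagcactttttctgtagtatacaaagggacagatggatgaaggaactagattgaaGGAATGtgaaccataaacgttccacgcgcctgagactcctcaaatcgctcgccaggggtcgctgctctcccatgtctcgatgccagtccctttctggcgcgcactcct
Bmf, chr2:118549687-118549936, minus strand: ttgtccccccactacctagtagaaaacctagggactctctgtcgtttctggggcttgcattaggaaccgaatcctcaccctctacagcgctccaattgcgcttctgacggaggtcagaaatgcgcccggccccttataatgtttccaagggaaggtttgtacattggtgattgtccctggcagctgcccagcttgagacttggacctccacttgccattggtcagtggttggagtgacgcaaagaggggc

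In these windows, 4 short motifs were searched on both strands. Of 32817 promoter windows of the same length, 16.6% held ACGTG and 12.6% held CATTCC. The core of the cell cycle genes homology region, through which MuvB complexes bind, was searched as TTTGAA and was in 16.0% of them, and a GATA site core, searched as AGATAA, was in 9.99%. Of the members, 1 held ACGTG, Bnip3, where CACGTG lay 108 to 103 bases before the start. CATTCC was found in Bcl2l1, at 108 to 103 bases, and in Mcl1, at 199 to 194 bases. TTTGAA was found in Bcl2, at 120 to 115 bases, and in Mcl1, at 242 to 237 bases, and AGATAA was found in a Bcl2l1 entry that lies inside the gene, at 41 to 36 bases. The windows of Bmf, Bid, Bad, Bcl2l11 and Bak1 held none of these letters, which says nothing about binding elsewhere.

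The targeted genes were checked first. Lin9 was at 29.8, 21.4 and 25.6 CPM in LIN9 wt and at 21.4, 21.3 and 19.2 CPM in LIN9 KO of the first experiment (log2 fold change -0.31, adjusted p = 0.130, edgeR). In the second experiment it was at 29.3, 28.1 and 23.2 CPM in controls, 13.2, 15.4 and 17.9 CPM in LIN9 KO (-0.80, adjusted p = 0.0027), 19.2, 31.4 and 25.6 CPM in Sav1 KO and 23.5, 26.1 and 18.5 CPM in double KO (-0.16 against Sav1 KO, adjusted p = 0.586). Sav1 was at 54.5, 56.2 and 61.9 CPM in controls, 51.9, 49.9 and 47.4 CPM in LIN9 KO, 43.1, 36.1 and 43.0 CPM in Sav1 KO (-0.50 against controls, adjusted p = 0.318) and 44.0, 40.5 and 42.3 CPM in double KO (-0.23 against LIN9 KO, adjusted p = 0.464), and passed the adjusted threshold in neither Sav1 comparison. In double KO against controls, Sav1 did pass it (log2 fold change -0.44, adjusted p = 0.00873, edgeR) and Lin9 did not (-0.24, adjusted p = 0.386). These counts cover whole genes, of which the floxed exon is a part, and whole ventricles, so they are a weak check of the deletion. The Lin9 counts of double KO libraries overlapped those of Sav1 KO libraries. In whole ventricles, fewer cells of a type and less RNA per cell cannot be told apart.

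Deletion of Lin9 raised the level of 3 of the 9 tested members in each of 3 comparisons that share no library, and these were the same 3 genes: Bcl2l1, which encodes the antiapoptotic protein BCL-XL, the BH3-only gene Bmf and the mitophagy receptor gene Bnip3. With 1 library left out, 1 to 2 members were called in the first experiment (1, Bcl2l1, without LIN9 wt replicate 1 or 3), 2 to 3 in the second with Sav1 wt and 1 to 3 with Sav1 KO (1, Bnip3, without double KO replicate 1 or 3, as with DESeq2). No member fell past the threshold, while 9.78%, 10.5% and 11.6% of all genes did in the order below. The share of all tested genes called higher was 11.1% in the first experiment, 12.8% in the second with Sav1 wt and 11.8% in the second with Sav1 KO, and 6.47% of 17656 genes were called higher in all 3. Without LIN9 wt replicate 3 of the first experiment, 1473 genes were called higher and 1249 lower there, against 2199 and 1932 with all libraries. The median log2 fold change of the 9 members was -0.08, 0.23 and -0.04 in the order of these comparisons, beside 0.02, 0.01 and 0.03 over all genes. The groups did not overlap for 4 of 9 members in each comparison, against 36.5%, 35.1% and 41.1% of all genes in either direction.

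**Figure D1:**
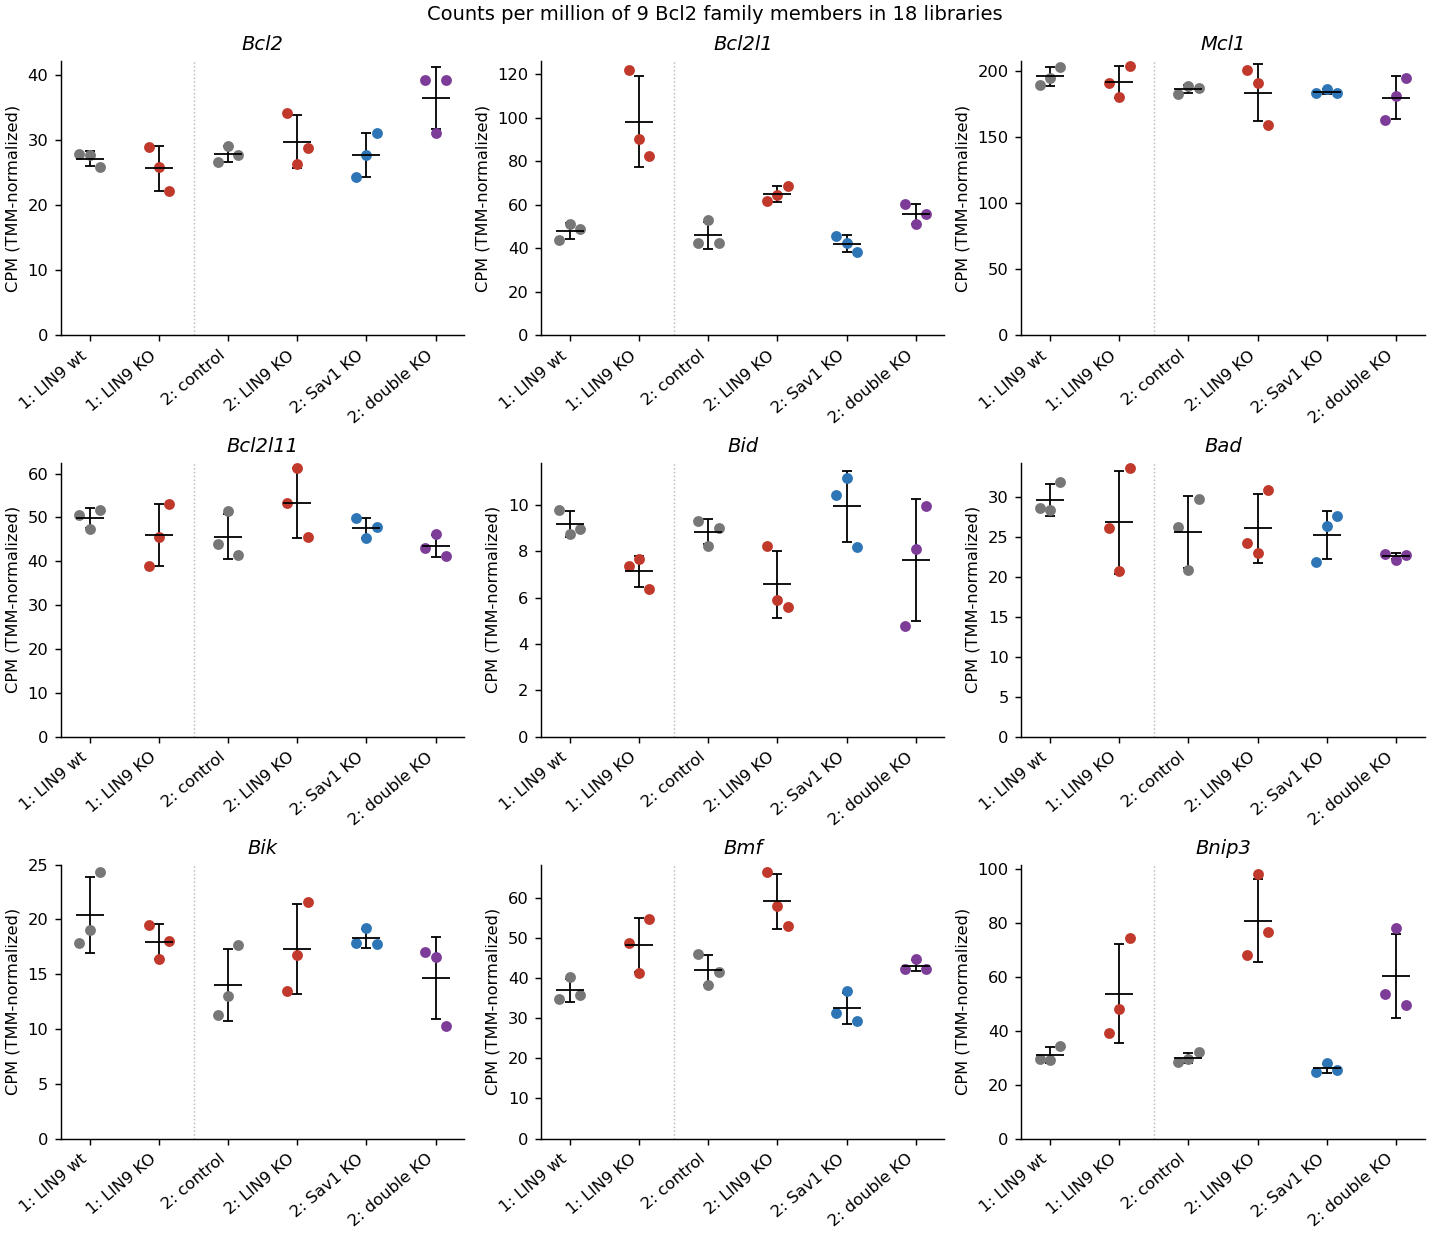
TMM-normalized CPM of the 9 members with counts in each library (points), by group, with group means and SD (black bars, n = 3); groups of the first and second experiment are separated by a dotted line. Within each LIN9 comparison, Bcl2l1 and Bnip3 lie higher in the libraries with Lin9 deletion than in the LIN9 wt libraries. For Bcl2l1, double KO libraries overlap with controls. Mcl1 stays between 159.6 and 204 CPM in all 18.

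Among the antiapoptotic members, Bcl2l1 (chr2:152780668-152831728, minus strand, GRCm38, 5 exon blocks) is known to give a long antiapoptotic and a short proapoptotic isoform, which gene counts do not separate. Its level was 43.8, 50.9 and 48.9 CPM in LIN9 wt and 121.8, 90.1 and 82.4 CPM in LIN9 KO of the first experiment. In the second experiment it was 42.2, 53.1 and 42.5 CPM in controls and 61.5, 64.3 and 68.6 CPM in LIN9 KO. In the Sav1 KO background it was 45.8, 42.2 and 38.2 CPM with LIN9 wt and 60.3, 51.1 and 55.5 CPM in double KO. Each LIN9 KO library thus lay above every LIN9 wt library of its comparison, and LIN9 KO replicate 1 of the first experiment stood highest of all.

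The group means of Bcl2l1 were 47.9 ± 3.68 and 98.1 ± 20.9 CPM (SD, n = 3) in the first experiment, a 2.05-fold rise (95% confidence interval 1.67 to 2.51, adjusted p = 0.000125, edgeR). In the second they were 46.0 ± 6.19 and 64.8 ± 3.59 CPM with Sav1 wt, a 1.41-fold rise (1.18 to 1.68, adjusted p = 0.00384), and 42.1 ± 3.78 and 55.6 ± 4.63 CPM with Sav1 KO, a 1.32-fold rise (1.11 to 1.58, adjusted p = 0.0204). The call in the first experiment held in all 11 alternatives (log2 fold change 0.85 to 1.14). The call with Sav1 KO was lost with DESeq2 (adjusted p = 0.061) and without Sav1 KO replicate 2 (0.0593) or 3 (0.109) or double KO replicate 1 (0.11) or 3 (0.056). In a joint fit of the 12 libraries with Sav1 wt, added after the data were seen, the log2 effect in the second experiment minus that in the first was -0.54 (SE 0.19, 95% interval -0.94 to -0.14, adjusted p = 0.972), and that of Bnip3 was 0.63 (SE 0.30, -0.01 to 1.28, adjusted p = 0.98), with 0 of 19021 genes past the adjusted threshold.

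Erythroid transcripts rose after Lin9 deletion, as did Bcl2l1, a gene that red cell precursors also express at a high level. The summed CPM of 11 erythroid markers with counts (Alas2 was at 0) was 10630, 7635 and 9008 in LIN9 wt and 87400, 44130 and 33310 in LIN9 KO of the first experiment, where the order of the KO libraries was that of Bcl2l1. It was 5207, 4168 and 4284 in controls and 20200, 29480 and 37760 in LIN9 KO, again with the KO libraries in the order of Bcl2l1, and 3568, 3268 and 4277 in Sav1 KO and 30040, 18800 and 10250 in double KO, where the order of the double KO libraries differed from that of Bcl2l1. Among LIN9 wt libraries of the first experiment and among controls, the order of the sums was the reverse of that of Bcl2l1. In Sav1 KO the order differed as well. Of the 11 markers, 10, 11 and 11 were called higher in the 3 LIN9 comparisons. The part of erythroid RNA in the level of Bcl2l1 was not tested.

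**Figure D2:**
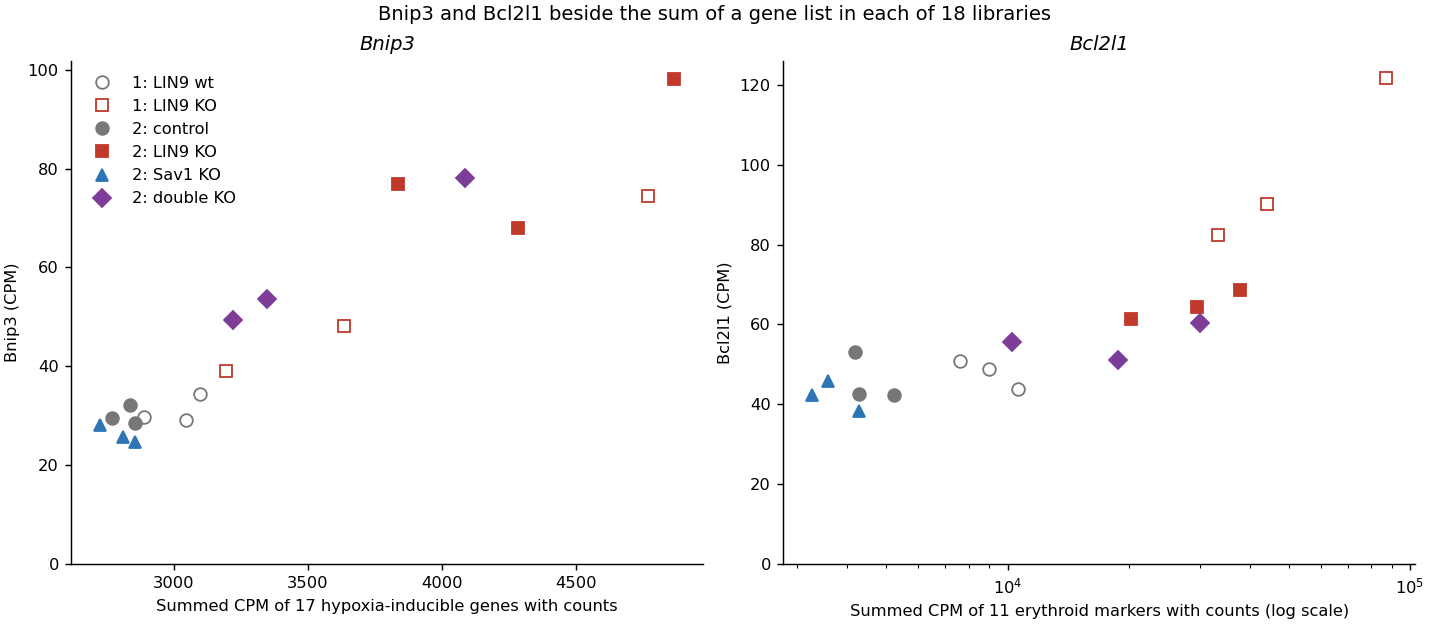
CPM of Bnip3 against the summed CPM of 17 hypoxia-inducible genes (left) and CPM of Bcl2l1 against the summed CPM of 11 erythroid markers on a log axis (right), each point 1 of 18 libraries, marked by experiment and genotype. The LIN9 KO and double KO libraries lie at higher sums than the other libraries of their experiment on both axes, with erythroid sums up to 87400 CPM.

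Bcl2 (chr1:106538178-106714274, minus strand, 2 exon blocks), the founding antiapoptotic member, was at 27.9, 27.7 and 25.8 CPM in LIN9 wt and 29.0, 25.8 and 22.1 CPM in LIN9 KO of the first experiment. In the second it was at 26.6, 29.1 and 27.7 CPM in controls, 34.2, 26.2 and 28.7 CPM in LIN9 KO, 24.2, 27.7 and 31.1 CPM in Sav1 KO and 39.2, 31.0 and 39.1 CPM in double KO. The double KO libraries were the highest as a group, yet the lowest of them overlapped with the highest Sav1 KO library. The log2 difference of double KO from Sav1 KO was 0.40 (SE 0.15, adjusted p = 0.0531) and that from controls was 0.39 (SE 0.15, adjusted p = 0.063), with no overlap in the latter. These comparisons share the double KO libraries. The adjusted p against Sav1 KO lay between 0.0387 and 0.215 over 12 alternatives, 5 of which called Bcl2. With Sav1 wt the log2 fold changes after Lin9 deletion were -0.08 (95% interval -0.35 to 0.18) in the first and 0.10 (-0.22 to 0.41) in the second experiment.

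Mcl1 (chr3:95658788-95663176, plus strand, 3 exon blocks), whose product is a short-lived antiapoptotic protein, had the narrowest range of the counted members relative to its level. It was at 189.9, 195 and 204 CPM in LIN9 wt and 192, 180.4 and 204 CPM in LIN9 KO of the first experiment. In the second it was at 183, 189 and 188 CPM in controls, 201, 191 and 159.6 CPM in LIN9 KO, 183, 187 and 184 CPM in Sav1 KO and 163, 182 and 195 CPM in double KO. The groups overlapped in each LIN9 comparison. The 95% intervals of its log2 fold change after Lin9 deletion ran from -0.25 to 0.18, from -0.23 to 0.18 and from -0.24 to 0.17, and the adjusted p was 0.871, 0.91 and 0.842 (edgeR).

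Of the effectors, Bak1 (chr17:27019810-27029009, minus strand, 7 exon blocks) was the only one among these members, and it had 0 counts in every library. Its whole span lies inside that of Ggnbp1 on the opposite strand, and 437 of its exonic bases are also exonic in that gene. Among 1164 protein-coding genes that lie inside another counted gene, 97.25% had 0 counts in all libraries, against 20.87% of 12301 that overlap no counted gene. Of the 636 nested genes that share no exonic base with an overlapping gene, 97.96% had 0 counts. A count of 0 would allow up to 0.312 to 0.316 CPM in the first and 1.00 to 1.08 CPM in the second experiment (3 counts, counting error only) if reads on Bak1 could be assigned to it, which these values leave unknown. Bak1 was therefore not measured, and its zeros are no evidence of its absence.

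Among the BH3-only genes, Bmf (chr2:118528757-118549687, minus strand, 7 exon blocks), whose product binds dynein light chain and is released on loss of attachment, was at 34.8, 40.2 and 35.7 CPM in LIN9 wt and 48.8, 41.2 and 54.6 CPM in LIN9 KO of the first experiment. In the second it was at 45.9, 38.4 and 41.5 CPM in controls and 66.4, 58.1 and 52.9 CPM in LIN9 KO. With Sav1 KO it was at 31.3, 36.8 and 29.3 CPM, and in double KO at 42.3, 44.7 and 42.3 CPM. The KO and wt groups of Lin9 did not overlap in any of these pairs, while controls and double KO libraries overlapped.

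Bmf rose 1.31-fold after Lin9 deletion in the first experiment (95% interval 1.10 to 1.56, adjusted p = 0.0317), 1.41-fold in the second with Sav1 wt (1.18 to 1.69, adjusted p = 0.00469) and 1.33-fold with Sav1 KO (1.09 to 1.61, adjusted p = 0.0287, edgeR). In the first experiment the call was lost without LIN9 wt replicate 1 or 3 or LIN9 KO replicate 1 or 3 (adjusted p 0.0831 to 0.137). In the second it was lost without control replicate 2 (0.0532) in the Sav1 wt background. In the Sav1 KO background it was lost with DESeq2 (0.083) and without Sav1 KO replicate 1 or 3 or any 1 of the 3 double KO replicates (0.0652 to 0.133).

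Bid (chr6:120891930-120916853, minus strand, 9 exon blocks), which links death receptors to mitochondria once it is cleaved, had the lowest counts, 14 to 33 per library in the second experiment. It was at 9.79, 8.75 and 8.94 CPM in LIN9 wt and 7.37, 7.66 and 6.38 CPM in LIN9 KO of the first experiment. In the second it was at 9.31, 8.223 and 8.99 CPM in controls, 8.216, 5.91 and 5.59 CPM in LIN9 KO, 10.4, 11.1 and 8.19 CPM in Sav1 KO and 4.77, 8.10 and 9.96 CPM in double KO. Its level was lower in each LIN9 KO library than in each LIN9 wt library of the first experiment, and by the narrowest margin also with Sav1 wt in the second, but not with Sav1 KO. The log2 fold changes were -0.36 (SE 0.17, adjusted p = 0.151), -0.42 (SE 0.28, adjusted p = 0.309) and -0.39 (SE 0.27, adjusted p = 0.323), and none of the 11, 12 and 12 alternatives for these comparisons called it.

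Bad (chr19:6941861-6951899, plus strand, 4 exon blocks), whose product is inactivated by phosphorylation, ranged from 20.8 to 33.6 CPM over all 18 libraries. After Lin9 deletion its log2 fold change was -0.14, 0.02 and -0.16, with SE of 0.15, 0.16 and 0.17, and the groups overlapped each time. Bik (chr15:83526862-83544634, plus strand, 7 exon blocks), a BH3-only protein of the endoplasmic reticulum, ranged from 10.3 to 24.3 CPM. Its log2 fold change was -0.18 (SE 0.15), 0.30 (SE 0.22) and -0.32 (SE 0.22), and in the last of these the groups did not overlap, with 17.8, 19.3 and 17.7 CPM in Sav1 KO and 17.0, 16.6 and 10.3 CPM in double KO. Bcl2l11 (chr2:128126038-128162547, plus strand, 6 exon blocks) encodes BIM, which binds all antiapoptotic members, and ranged from 39.0 to 61.3 CPM. Its log2 fold change was -0.12 (SE 0.12), 0.23 (SE 0.13) and -0.13 (SE 0.13), and the adjusted p of Bad, Bik and Bcl2l11 lay between 0.22 and 0.958 in these comparisons.

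Bnip3 (chr7:138890836-138909519, minus strand, 6 exon blocks) showed the largest rise of the members in the second experiment. It was at 29.7, 29.1 and 34.3 CPM in LIN9 wt and 39.0, 48.1 and 74.4 CPM in LIN9 KO of the first experiment. In the second it was at 28.6, 29.5 and 32.2 CPM in controls and 68.0, 98.1 and 76.8 CPM in LIN9 KO. It was at 24.6, 28.0 and 25.6 CPM in Sav1 KO and 53.5, 78.2 and 49.5 CPM in double KO. No LIN9 KO library reached down to a LIN9 wt library, and the KO groups had a wide spread, with SD of 18.3, 15.5 and 15.6 CPM against 2.85, 1.87 and 1.78 CPM in their LIN9 wt groups.

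The rise of Bnip3 was 1.74-fold in the first experiment (95% interval 1.22 to 2.47, adjusted p = 0.0356), 2.69-fold in the second with Sav1 wt (2.14 to 3.39, adjusted p = 4.85e-07) and 2.31-fold with Sav1 KO (1.82 to 2.94, adjusted p = 8.71e-06, edgeR). The log2 fold change in the first experiment was 0.80, and it lay between 0.49, without LIN9 KO replicate 3, and 0.99, without LIN9 KO replicate 1, over 11 alternatives. The call there was lost without the filter on low counts (adjusted p = 0.0948) and without any of the LIN9 wt replicates or LIN9 KO replicate 2 (0.0773 to 0.0896). Both calls in the second experiment held in all 12 alternatives each. Of its exonic bases, 57.9% lie under the antisense gene Gm45507, which had 0 counts, and how reads on these bases were assigned is not known.

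**Figure D3:**
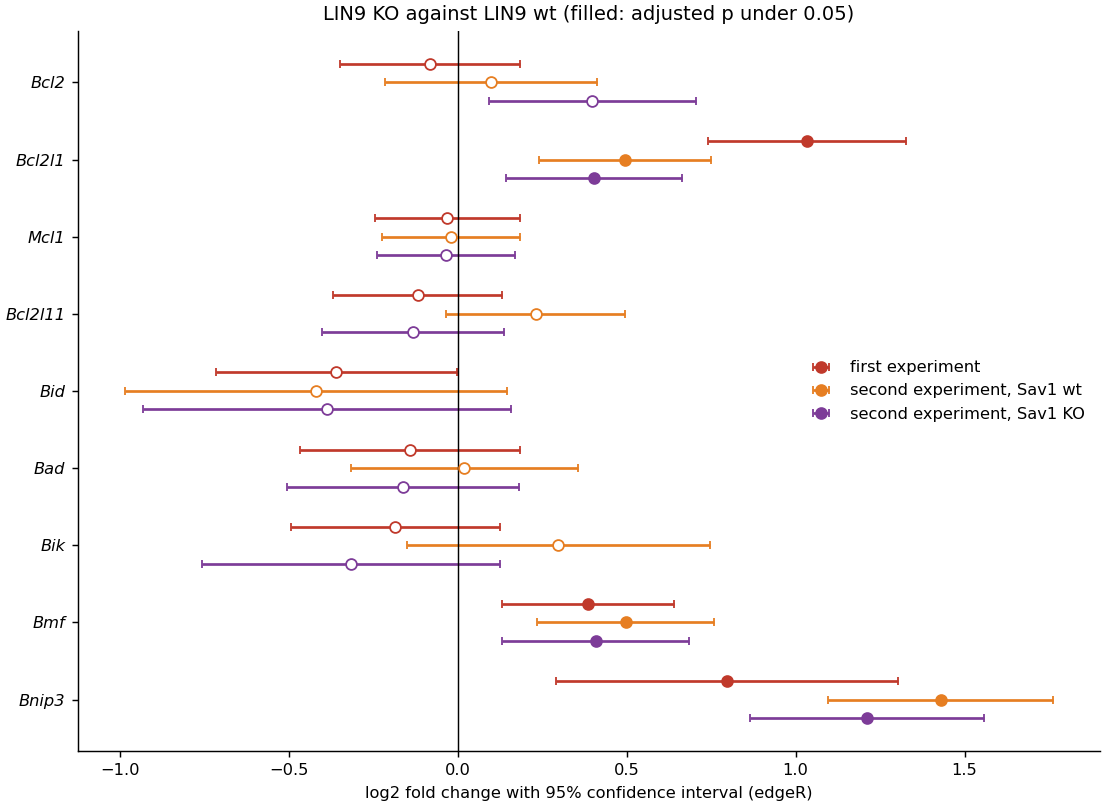
Log2 fold change of LIN9 KO against LIN9 wt with its 95% confidence interval (edgeR) for the 9 tested members in the first experiment and in the second experiment with Sav1 wt or Sav1 KO; filled points passed the adjusted threshold of 0.05. Bcl2l1, Bmf and Bnip3 are filled in all 3 comparisons, from 0.39 to 1.43, and the intervals of Mcl1 lie within 0.25 of 0.

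Many hypoxia-inducible genes rose after Lin9 deletion, as Bnip3 did. A list of 18 such genes, 17 of them with counts (Adm was at 0), had 6 called higher and 0 lower in the first experiment (median log2 fold change 0.67), 14 higher and 0 lower in the second with Sav1 wt (0.92) and 11 higher and 0 lower with Sav1 KO (0.55). Of all genes, 11.1%, 12.8% and 11.8% were called higher and 9.78%, 10.5% and 11.6% lower, with medians of 0.02, 0.01 and 0.03. The largest changes among genes called with Sav1 wt in both experiments were those of Egln3 (1.70 and 2.00), a prolyl hydroxylase that acts on HIF, P4ha1 (1.62 and 1.84), a collagen prolyl hydroxylase, and Ero1l (0.85 and 1.33), an oxidase of the endoplasmic reticulum. The summed CPM of the list was 2889, 3047 and 3096 in LIN9 wt and 3194, 3636 and 4769 in LIN9 KO of the first experiment, with the KO libraries in the order of Bnip3. It was 2855, 2769 and 2835 in controls, 4285, 4868 and 3836 in LIN9 KO, 2854, 2725 and 2811 in Sav1 KO and 3349, 4086 and 3221 in double KO. Here the double KO libraries followed the order of Bnip3 and the LIN9 KO libraries did not, although the same library was highest in both. In LIN9 wt of the first experiment and in controls the order also differed from that of Bnip3, and in Sav1 KO it was the reverse. The count of 6 in the first experiment ranged from 4, without any 1 LIN9 wt replicate, to 12, without LIN9 KO replicate 1, and was 11 with DESeq2, and the call of Egln3 there was lost in 6 of 11 alternatives. What links the level of Bnip3 to this list was not tested.

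Deletion of Sav1, a scaffold of the Hippo kinase MST, called 0 of 9 members. In LIN9 wt ventricles 0.017% of all genes passed the adjusted threshold and in LIN9 KO ventricles 0.0113%. These shares rest on few genes and on single libraries: with 1 library left out, 0 to 2 genes were called in LIN9 wt and 0 to 378 in LIN9 KO (378 without LIN9 KO replicate 3, 2 with all libraries). Without the filter on low counts, 22 and 309 genes were called. DESeq2 called 0 members in LIN9 wt and gave the members no adjusted p in LIN9 KO, where it adjusted p for 869 genes and called 77 of them. At an unadjusted p under 0.05 there was 1 member in LIN9 wt and there were 3 in LIN9 KO, where 2.08% and 7.12% of all genes were lower and 1.84% and 4.72% higher at that level. Both comparisons share all their libraries with the LIN9 comparisons of the second experiment.

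The member with an unadjusted p under 0.05 in both was Bmf, with a log2 difference of -0.37 in LIN9 wt (SE 0.14, adjusted p = 0.999) and -0.46 in LIN9 KO (SE 0.13, adjusted p = 0.142). Every Sav1 KO library lay below every Sav1 wt library in both backgrounds, and without LIN9 KO replicate 3 the adjusted p in LIN9 KO was 0.0372. The mitophagy receptor gene Bnip3 had a difference of -0.21 in LIN9 wt (SE 0.18), where the groups did not overlap, and -0.42 in LIN9 KO (SE 0.15, adjusted p = 0.243), where they did. Bcl2l11 had -0.30 in LIN9 KO (SE 0.13, adjusted p = 0.365). Groups that did not overlap were also those of Bik in LIN9 wt (0.39, SE 0.22) and of Bcl2l1 (-0.22, SE 0.12) and Bad (-0.20, SE 0.17) in LIN9 KO. That made 3 of 9 members in each background, against 12.1% and 15.1% of all genes.

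Of the 17 hypoxia-inducible genes, 0 were called for Sav1 deletion in LIN9 KO, 11 had an unadjusted p under 0.05, and the median log2 difference was -0.36, beside 0.00 over all genes, of which 7.12% were lower and 4.72% higher at that level. In LIN9 wt the median was -0.03 and 0 genes had a p under 0.05, beside 2.08% of all genes lower and 1.84% higher.

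**Figure D4:**
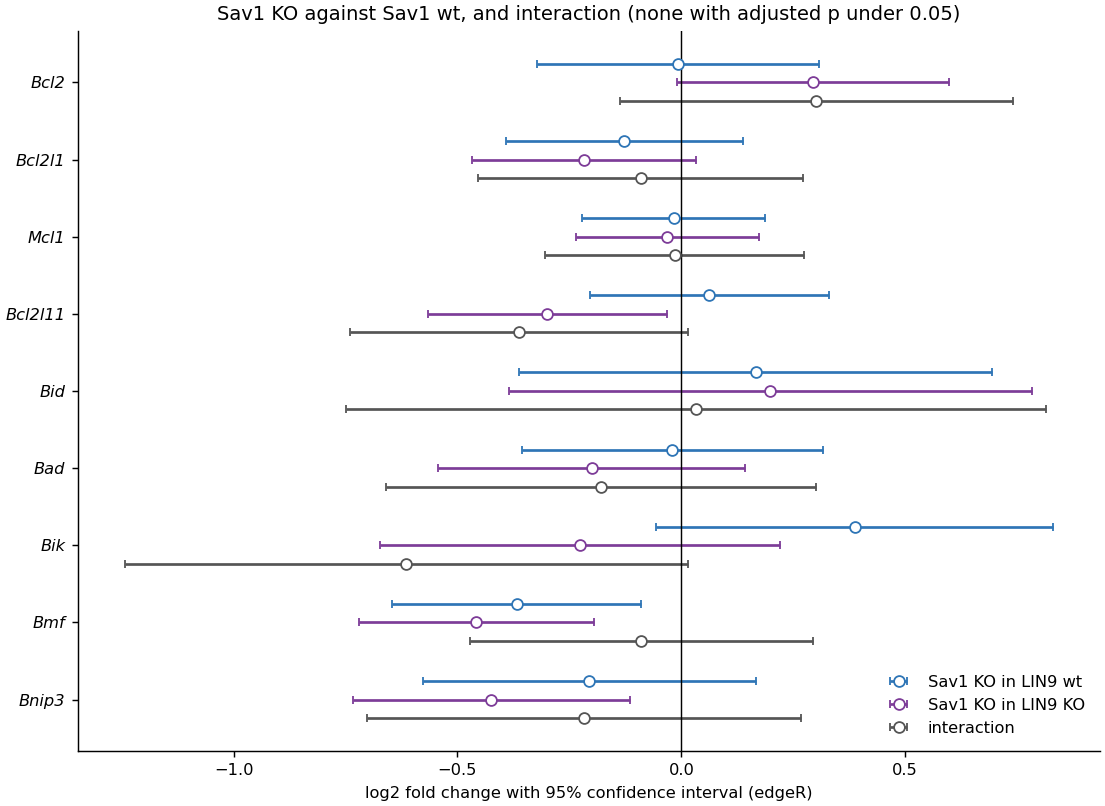
Log2 fold change of Sav1 KO against Sav1 wt with its 95% confidence interval (edgeR) for the 9 tested members in LIN9 wt and LIN9 KO ventricles of the second experiment, and the interaction (the Sav1 effect with Lin9 deleted minus that without). No point passed the adjusted threshold of 0.05, and the intervals of Bmf lie below 0 in both backgrounds.

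Whether the effect of one deletion depended on the other was tested by the interaction, in which 0.0% of all genes and 0 of 9 members were called. DESeq2 also called 0, while 64 genes were called without LIN9 KO replicate 3, with 0 members among them, and 17 without the filter on low counts. In the fit of all libraries, 0 members had an unadjusted p under 0.05, beside 2.57% of all genes higher and 3.97% lower. The members with the smallest p were Bik, at -0.61 (95% interval -1.24 to 0.01, adjusted p = 0.761), and Bcl2l11, at -0.36 (-0.74 to 0.02, adjusted p = 0.764). For the members that rose after Lin9 deletion the interaction was -0.09 (-0.45 to 0.27) for Bcl2l1, -0.09 (-0.47 to 0.29) for Bmf and -0.22 (-0.70 to 0.27) for Bnip3, and each interval included 0.

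In double KO against control ventricles, 1 of 9 members was called, with 10.7% of all genes called higher and 9.96% lower. Without double KO replicate 2, the genes called higher were 1148 in place of 1887. The member called was Bnip3, 2.01-fold higher (95% interval 1.59 to 2.54, adjusted p = 8.65e-05), which held in all 12 alternatives. Bcl2l1 had a log2 difference of 0.28 (SE 0.13, adjusted p = 0.124) and Bmf of 0.04 (SE 0.13, adjusted p = 0.872), and both overlapped with controls. Groups did not overlap for Bcl2 and Bnip3, 2 of 9 members, against 37.4% of all genes.

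Levels of different members were compared per length, as CPM per kilobase of exonic sequence. Mcl1 was highest in all 6 groups, at 52.7 to 57.4 CPM per kilobase, with no library overlapping the next member. Bnip3 was next in all 6 groups, from 11.5 in Sav1 KO to 35.8 in LIN9 KO of the second experiment. Its libraries overlapped those of the member below it in both groups of the first experiment and in Sav1 KO. Bcl2l1 stood below it in the 3 groups with Lin9 deletion, at 12.1 to 21.4, and was below Bad in the other 3, at 9.17 to 10.4, with overlap.

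Bik, Bad and Bmf lay between 6.18 and 12.8 CPM per kilobase, and Bik and Bad, which followed each other in 5 of the 6 groups, overlapped in 4 of these. Bcl2l11 was at 5.41 to 6.65, Bcl2 at 2.80 to 3.98 and Bid lowest at 1.85 to 2.80, and Bcl2 and Bid overlapped in Sav1 KO. The order rests on the length used. With the longest transcript of each gene, Mcl1 was still highest in all 6 groups, but Bnip3 was at rank 2 in 2 groups (LIN9 KO of the second experiment and double KO), rank 3 in 2 (LIN9 KO of the first experiment and controls) and rank 4 in 2 (LIN9 wt of the first experiment and Sav1 KO), and Bcl2 in place of Bid was lowest in the latter 2. With the length cut to exonic bases outside other counted genes and the counts unchanged, Bnip3 exceeded Mcl1 in the 3 groups with Lin9 deletion. It was at 63.4 and 85.0 against 52.7 and 53.8 CPM per kilobase in double KO and LIN9 KO of the second experiment. In the first it was at 56.5 against 56.2, and it was below Mcl1 in the other 3 groups. This length applies only if no counted read lay on the bases left out, 57.9% of those of Bnip3, which is not known.

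**Figure D5:**
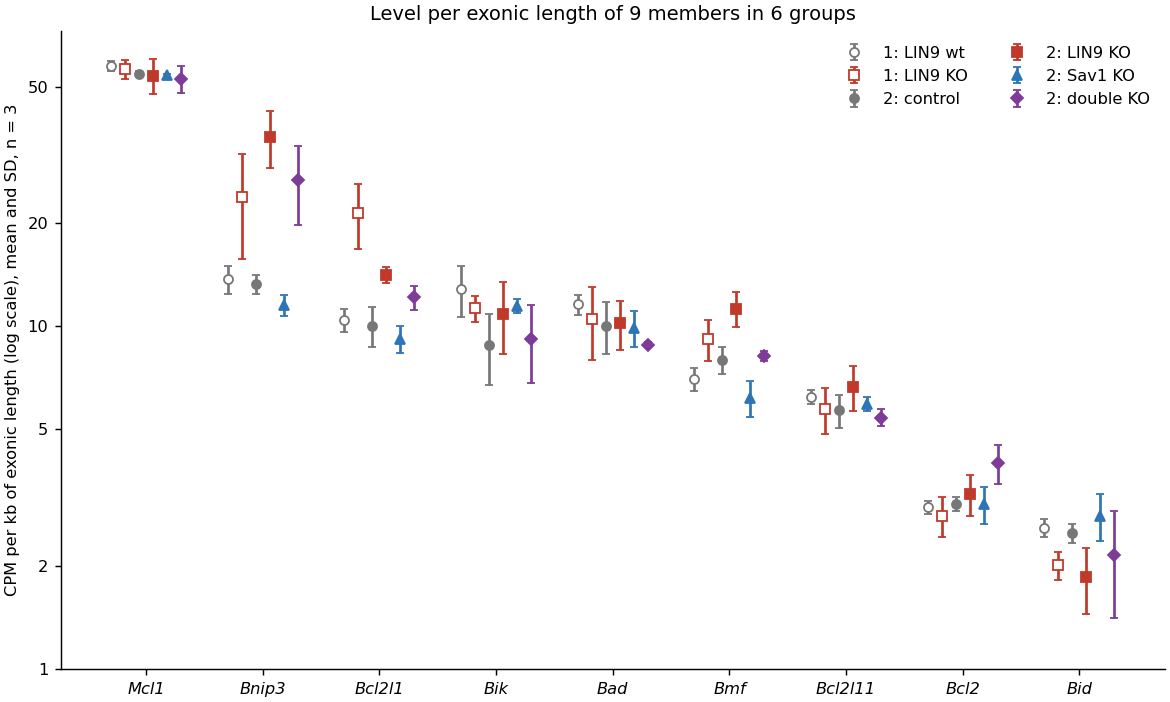
CPM per kilobase of exonic length on a log axis for the 9 counted members, ordered by level, as mean and SD over 3 libraries in each of 6 groups. Mcl1 lies at 52.7 to 57.4 in every group, and Bnip3 and Bcl2l1 spread apart by genotype, while Bid lies lowest with this length.

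The genes whose log2 CPM followed the rising members most closely over the 12 libraries of the second experiment were sought among 12396 genes with a mean of at least 5 CPM, and Pearson's r is given as a description, since these libraries share genotypes, depth and cell composition. For Bcl2l1 they included Il11ra1 (r = 0.942, and 0.88 over the 6 libraries of the first experiment) and Stx11 (0.933 and 0.888). For Bmf they were Ankrd50 (0.944 and 0.834), Sall1 (0.943 and 0.85) and Shisa4 (0.941 and 0.891). For Bnip3 they were Ero1l (0.988 and 0.953), which is on the hypoxia list, Ccng2 (0.985 and 0.97) and Fbxl20 (0.983 and 0.974). Among the members themselves, r was 0.839 and 0.59 for Bcl2l1 with Bnip3 and 0.803 and 0.8 for Bmf with Bnip3. It was 0.739 and 0.778 for Bcl2l1 with Bmf. With Bid it was -0.694 and -0.799 for Bcl2l1, -0.641 and -0.914 for Bnip3 and -0.429 and -0.956 for Bmf.

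The rest of the pathway was read from lists of genes in both LIN9 comparisons with Sav1 wt, in which 11.1% and 12.8% of all genes were called higher and 9.78% and 10.5% lower, with medians of 0.02 and 0.01. Of the other BCL2 family members, 4 of 12 tested were called higher and 0 lower in the first experiment and 4 of 11 higher and 0 lower in the second, where 1 was lower with filterByExpr. The largest were Pmaip1 (log2 fold change 2.79 and 3.04) and Bbc3 (0.87 and 1.02), which encode the BH3-only proteins NOXA and PUMA and are known p53 targets, and Bnip3l (0.58 and 0.56), the relative of Bnip3 that clears mitochondria from maturing red cells. Median log2 fold changes of the list were 0.41 and 0.19.

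Of 21 genes for mitochondrial release and caspases, 2 were higher and 5 lower in the first experiment and 3 higher and 5 lower in the second, with medians of -0.14 and -0.17. The higher genes were thus near the background share of 11.1% and 12.8%. Cytochrome c, Cycs, fell by 0.76 and 1.05 on the log2 scale, while the apoptosome scaffold Apaf1 rose by 0.54 and 0.93 and the executioner caspase gene Casp6 by 0.54 and 0.71. Leaving out LIN9 wt replicate 1, 2 or 3 or LIN9 KO replicate 1 or 2 took the 5 lower genes of the first experiment down to 2 or 3. Leaving out control replicate 3 took those of the second to 3.

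Of 13 tested regulators of the members, 3 were higher and 2 lower in the first experiment and 3 higher and 3 lower in the second, within 2 genes of the background shares (11.1% and 12.8% higher, 9.78% and 10.5% lower). They included the kinase gene Pim1 (1.18 and 0.88) and the transcription factor gene Foxo3 (0.51 and 1.06), whose products act on BAD and on the transcription of Bcl2l11, and the kinase gene Akt1 (-0.49 and -0.45). Of 13 tested mitophagy genes, 4 were higher and 3 lower and then 5 higher and 2 lower, with Gabarapl1 (0.79 and 0.90), which binds mitophagy receptors, the adaptor gene Sqstm1 (0.71 and 0.68) and Bnip3l among the higher. The lower regulators were 1 without LIN9 wt replicate 2 or 3 or LIN9 KO replicate 1 of the first experiment, and 1 without control replicate 3 and 5 without LIN9 KO replicate 1 in the second. Gabarapl1 lost its call in the first experiment without LIN9 wt replicate 3 (adjusted p = 0.0596), and the lower mitophagy genes of the second were 1 with DESeq2 and 4 with the replicate block. The medians were -0.04 and 0.00 for regulators and -0.08 and 0.14 for mitophagy.

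The tissue held ventricular muscle and other cells. Some list genes were at 0, Actc1 here and Alas2 and Adm above. Whether reads could be assigned to them was not checked, so their zeros are no evidence of absence. The summed CPM of 7 ventricular cardiomyocyte markers with counts (Actc1 was at 0) was 17320 to 18210 in LIN9 wt and 7973 to 9177 in LIN9 KO of the first experiment, and 17740 to 18530 in controls, 7547 to 10170 in LIN9 KO, 18240 to 19540 in Sav1 KO and 8811 to 9335 in double KO of the second, with 6 of 7 markers called lower in each LIN9 comparison. The sums of fibroblast and cushion mesenchyme markers were 2175 to 2492 in LIN9 wt and 4543 to 4997 in LIN9 KO of the first experiment, 2869 to 3101 in controls and 5194 to 6567 in LIN9 KO, and 2849 to 3373 in Sav1 KO and 5145 to 6717 in double KO. In the order of these pairs, macrophage sums were 89.8 to 99.3 and 179 to 204, 91.0 to 97.0 and 180.4 to 214, and 75.3 to 89.4 and 208 to 233, and epicardial sums were 242 to 261 and 405 to 471, 217 to 228 and 370.3 to 468, and 192 to 224 and 354 to 369. Of the fibroblast markers 6, 6 and 7 of 7 were called higher, of the macrophage markers 7, 6 and 6 of 7 and of the epicardial markers 4 of 5 each time, with 0 lower. Atrial sums were 3120 to 4018 and 4153 to 5221, 3034 to 3477 and 4052 to 4889, and 2809 to 3246 and 3774 to 4279, with 1, 3 and 3 of 5 markers higher and 0 lower.

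Endothelial and endocardial markers went both ways, with 2, 2 and 4 of 8 called higher and 0, 1 and 1 lower. Their sums were 982 to 1255 and 1152 to 1516, 1080.0 to 1133 and 1178 to 1297, and 954 to 1026 and 1080.0 to 1267. Smooth muscle markers had 1 of 4 called higher each time and 0, 1 and 1 lower, with sums of 1422 to 1684 and 1984 to 2248, 1409 to 1476 and 1406 to 1723, and 1642 to 1708 and 1506 to 1724. The groups thus overlapped for endothelial sums in the first experiment and for smooth muscle sums in both comparisons of the second. The cardiomyocyte, fibroblast, macrophage, epicardial and atrial sums did not overlap between LIN9 wt and LIN9 KO in any of the 3 comparisons, in which Bcl2l1, Bmf and Bnip3 also differed, and their part in the levels of these members was not tested.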

How the data were processed

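RNA-seq counts of 18 libraries of E13.5 ventricles in 2 experiments were analysed. Per the labels and the methods of the study, the authors mapped reads with TopHat2 2.1.0 and Bowtie2 to mm10, reduced libraries to the smallest number of mappable reads, and counted reads per Ensembl gene (GRCm38.p6) with summarizeOverlaps. The deposited counts are whole numbers with no further normalization, and the overlap mode and strand setting are not given in the sources used here. Deposited tables of the authors' own fold changes and p-values were not used, 0 columns of per-sample values were left unused, and 4 libraries of ChIP-seq were left out, since none measures RNA.

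Each experiment was fitted on its own with edgeR 4.0.16 (R 4.3.3): TMM, genes with a mean count above 1 (19752 and 17675), robust quasi-likelihood test, two-sided, Benjamini-Hochberg adjustment over all genes tested, threshold 0.05. The 12 libraries of the second experiment shared 1 fit, and 7 comparisons were made in all. CPM used TMM library sizes. Intervals cover 95%. The fit was tested on simulated counts. Gene positions and exonic lengths are from GENCODE M21 (GRCm38), and 4 repeated identifiers per table were kept once.

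The members and lists were chosen with earlier results of these data known. Named genes are Lin9, Sav1, the 10 members, at most 3 genes per pathway list with the largest change among those called in both LIN9 comparisons with Sav1 wt, and the 3 genes most correlated with each member called in both. Of the latter, 1 is not reported here. Genes named for overlapping a member or for 0 counts fall outside this rule.

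Libraries with the same replicate number were checked for pairing: over genes of at least 5 CPM, how far each deviated from its group mean was correlated between groups. This r exceeded 0.1 for every pair of control with LIN9 KO (0.257 to 0.637), control with Sav1 KO (0.102 to 0.330) and LIN9 KO with Sav1 KO (0.116 to 0.358), but not in the first experiment (0.0576 to 0.285) or with double KO (-0.104 to 0.159). This pairing comes from the values alone. Alternatives were DESeq2 (1.42.0) as test or as size factors, other filters, a replicate block, only the compared groups, and each library left out.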

Additional observations from a re-analysis of the deposited data

How the results depend on the processing

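Counts of called members changed as follows, and the cause was not tested. In the first experiment 1 to 2 members were called after Lin9 deletion with a replicate left out, and 1, Bcl2l1, without LIN9 wt replicate 1 or 3. With Sav1 KO, the LIN9 comparison gave 1 member, Bnip3, with DESeq2 and 1 to 3 with a replicate left out. The Sav1 comparison in LIN9 KO gave 0 to 1 with a replicate left out. The double KO comparison gave 2 members, Bcl2 (adjusted p = 0.0485) and Bnip3, with edgeR's filterByExpr. Mcl1 had the highest level per length in 3 of 6 groups with exonic length outside other genes, an alternative chosen after seeing the data, and in 6 of 6 with the longest transcript, with which Bnip3 was next in 2 groups instead of 6 and Bid lowest in 4 instead of 6. With the replicate block, the members called were the same except for Bcl2 after Lin9 deletion with Sav1 KO (log2 fold change 0.40, adjusted p = 0.0493), where 4 members were called, and those groups are not paired by the check of replicate numbers. The block took the genes called in the first experiment from 4131 to 5001 and those for Sav1 deletion in LIN9 KO from 2 to 84. DESeq2 gave no member an adjusted p in that comparison, so it has no value there. Of the members' log2 fold changes, none that passed the threshold changed direction. Directions that turned belonged to small changes: Bad after Lin9 deletion in the second experiment was -0.0121 with only the compared groups, and the Mcl1 interaction was 0.0011 with filterByExpr. With a replicate left out, the log2 fold changes ran as follows. In the first experiment, Bad went from -0.340 to 0.0131, Mcl1 from -0.0783 to 0.0122 and Bcl2 from -0.176 to 0.0112. In the second with Sav1 wt, Bad went from -0.145 to 0.138, Bcl2 from -0.0347 to 0.148 and Mcl1 from -0.106 to 0.042, and with Sav1 KO Mcl1 from -0.116 to 0.0002. For Sav1 deletion in LIN9 wt, Bad went from -0.162 to 0.0986, Bcl2 from -0.0982 to 0.0684 and Bcl2l11 from -0.0003 to 0.141, and in LIN9 KO Mcl1 from -0.129 to 0.0435 and Bid from -0.0375 to 0.440. For double KO, Bik went from -0.0943 to 0.270, Bcl2l11 from -0.147 to 0.008 and Bmf from -0.0373 to 0.111. The interaction of Mcl1 went from -0.102 to 0.0691, of Bmf from -0.157 to 0.0379, of Bid from -0.193 to 0.285 and of Bcl2l1 from -0.173 to 0.0034. Bid had the lowest counts of the tested members, with as few as 14 in a library.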
